A study of Homo sapiens with 6 samples.

Results

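Transcript levels of 60 genes that act in mitosis and cytokinesis were compared between SW480 cells given an siRNA against KHSRP and SW480 cells given a non-targeting scramble siRNA. SW480 is an established epithelial line from a Dukes B adenocarcinoma of the colon, and both groups carried every change of that line. Cells in both groups were transfected for 48 h with 30 pmol of their siRNA using 2 µl of a lipid transfection reagent. Their total RNA was hybridised to Affymetrix arrays. There were 6 arrays, 3 with KHSRP siRNA and 3 with scramble siRNA, and the labels call the 3 of a group biological replicates. The genes were chosen by their symbol from knowledge of cell division, with earlier results of these data known. Of the 60, 58 were measured among 22412 tested genes. BUB1B and CIT stood on rows that the array annotation gives to several genes and were not analysed here. The 58 fell into 5 classes by function: mitotic entry (12 measured), kinetochore and checkpoint (18), spindle and motors (14), cytokinesis (5) and exit and chromosomes (9).

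Mitosis begins when CDK1, bound to its cyclins and released by CDC25 phosphatases, phosphorylates proteins across the cell, with Polo-like and Aurora kinases acting beside it. Kinetochores built on the centromeric histone CENPA attach chromosomes to spindle microtubules, and the spindle checkpoint holds back the anaphase-promoting complex until all are attached. That complex, with CDC20 and its ubiquitin-conjugating enzymes, then marks cyclin B and securin for destruction, separase opens cohesin, and a contractile ring placed by the central spindle divides the cell. Transcripts of many of these genes peak together in G2 and M phase in dividing cells. KHSRP binds RNA and is known to speed the decay of mRNAs that carry AU-rich elements. In bulk RNA, a larger share of cells in G2 and M phase and more transcript in each such cell cannot be told apart.

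KHSRP itself was at 5.62, 5.60 and 5.56 on the log2 intensity scale in the KHSRP siRNA arrays, against 5.75, 5.59 and 5.64 in the scramble siRNA arrays. The groups overlapped, with a log2 fold change of -0.07 (SE 0.08, adjusted p = 0.804 in limma), so the target's level does not check the labels and groups are named by label alone. The row also carries the annotation of a microRNA gene. Of 10 epithelial markers, 8 had a mean above 4.73, the 95th percentile of the means of 366 olfactory receptor genes, taken here as background, and the exceptions were CDH17 and LGALS4. The mean of the epithelial list was 8.29 to 8.34 in the KHSRP siRNA arrays and 8.07 to 8.13 in the scramble siRNA arrays. Of 17 measured markers of other cell types (fibroblasts, endothelium, blood and liver), 14 lay at or below background, and the others were ACTA2, LYZ and CD68. Their list mean was 4.05 to 4.12 in the KHSRP siRNA arrays and 4.06 to 4.15 in the scramble siRNA arrays.

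All 58 genes lay above the median level of the tested genes. TOP2A was the brightest member and CCNF the dimmest, with mean levels of 13.61 and 4.94, and no member had a group mean under background. Among the 58 members 1, ANLN, rose past the threshold of an adjusted p under 0.05 in limma (1.72% of the members, against 0.759% of all tested genes called in either direction). No member fell past it. A further 5 had adjusted p-values between 0.05 and 0.1: PLK1, CENPE, ASPM, KIF20B and UBE2C, all with positive log2 fold changes. This band was not counted over all tested genes, so the 5 are not read as a trait of the members. Genes of lists described below lay in it with either sign, such as PBK at 0.80 and CKAP5 at -0.68. By limma p without adjustment, 13 members were higher and 5 lower in KHSRP siRNA arrays at under 0.05 (31.0% together, against 14.4% of all tested genes). This was 22.4% higher, against 8.51% of all tested genes and 13.8% of the genes above the median level, and 8.62% lower, against 5.89% and 10.1%. The members' median log2 fold change was 0.10, against 0.02 over all tested genes. The members' median was 0.05 after a further quantile normalization and also 0.05 without KHSRP siRNA replicate 1. Over all tested genes the median was -0.005 and 0.004 in these settings. The fit placed 36 members above 0 (62.1%, against 55.0% of all tested genes) and 22 below. The comparison with genes above the median level was added after the values were seen.

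**Figure D1:**
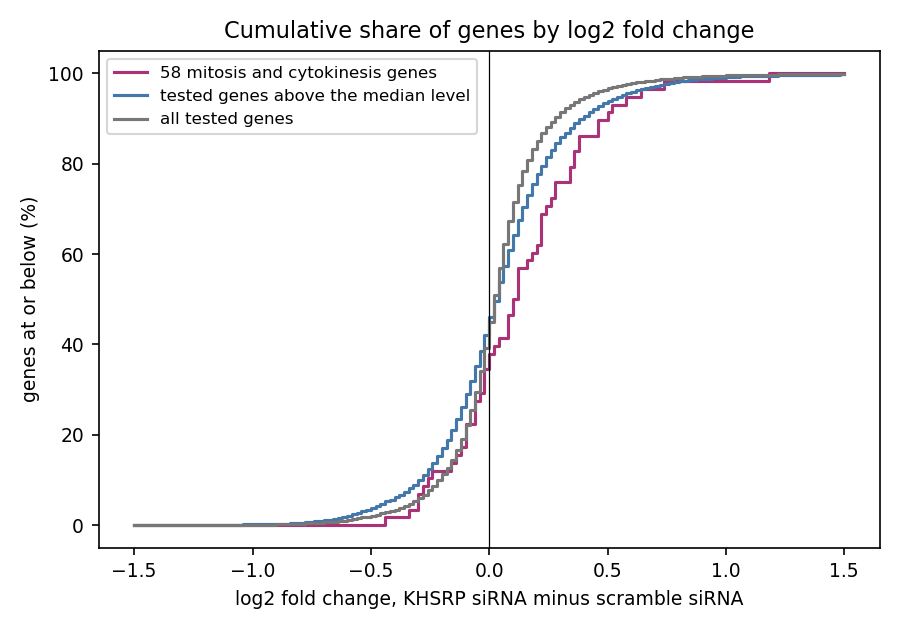
Cumulative share of genes (y axis, percent) by log2 fold change, KHSRP siRNA minus scramble siRNA (x axis), for the 58 members, for tested genes above the median level and for all tested genes. The members' curve runs to the right of the other curves between about 0 and 0.5, around its median of 0.10.

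The groups did not overlap for 20 members (34.5%, against 19.4% of all tested genes), 17 of them higher in all KHSRP siRNA arrays and 3 lower. This was 29.3% higher, against 11.6% of all tested genes and 16.2% of those above the median level, and 5.17% lower, against 7.82% and 11.7%. The 3 lower were BUB1, KIF23 and ESPL1. The scramble siRNA arrays were close to each other in their overall member level, with means over the 58 genes of 8.37, 8.37 and 8.38. The KHSRP siRNA arrays had means of 8.54, 8.48 and 8.46, all above those of the scramble siRNA arrays. The mean over all tested genes was 5.50, 5.47 and 5.50 in the KHSRP siRNA arrays and 5.48, 5.46 and 5.46 in the scramble siRNA arrays.

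**Figure D2:**
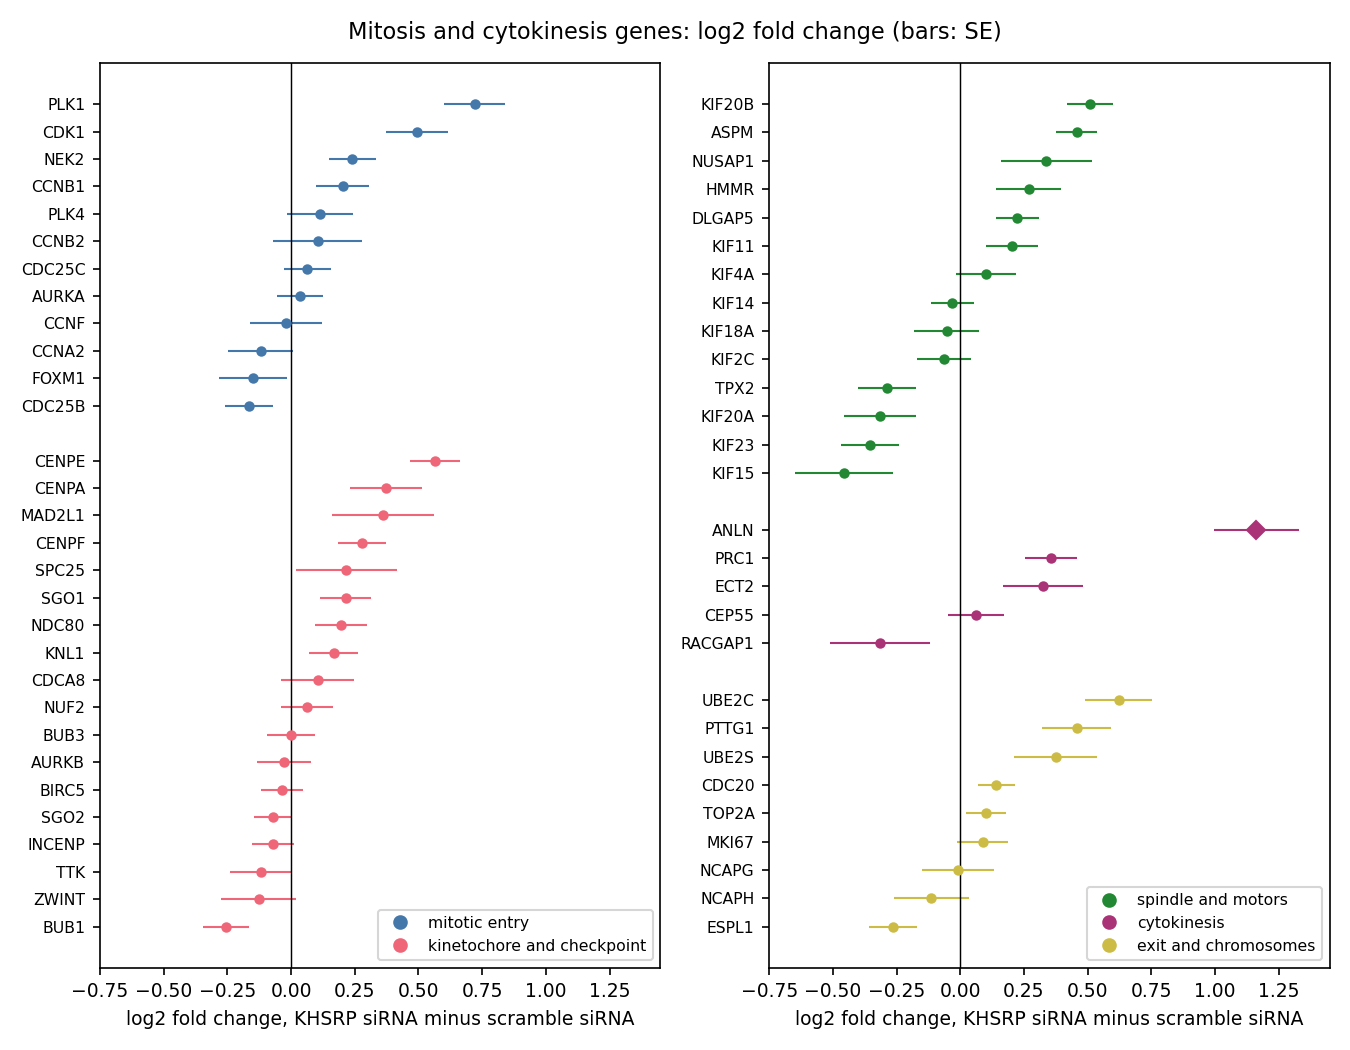
Log2 fold change (x axis, KHSRP siRNA minus scramble siRNA, 3 arrays each) of each of the 58 measured genes, sorted within 5 functional classes, with bars of 1 SE. The diamond marks ANLN at 1.16, the only member past the adjusted threshold, and each class holds genes on both sides of 0.

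Promoters of mitotic genes are known for a cell cycle homology region, which the MuvB complexes bind, often downstream of CCAAT boxes, which NF-Y binds. RefSeq promoter windows (GRCh38.p14, from 250 bases before to 50 after a transcription start) were found for 49 of the 58 genes, 63 windows in all. The letters TTTGAA or the variant TTTAAA, on either strand, stood in 77.8% of the members' windows, against 24.0% of all 35116 windows. CCAAT, on either strand, stood in 77.8%, against 34.6%. Both stood in 61.9%, against 9.27%. Each window was counted once, however many matches it held. By gene, the first motif stood in 11 of the 12 genes with a window that were higher at an unadjusted p under 0.05, in 3 of the 4 that were lower and in 29 of the 33 others. Both motifs stood in 9 of the 12, 2 of the 4 and 23 of the 33.

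The upstream 250 bases are shown for the 2 genes with the smallest p among those higher, ANLN and PLK1, and the 2 among those lower, KIF23 and BUB1. Capitals mark the letters TTTGAA, whose other strand reads TTCAAA, the letters TTTAAA, and the CCAAT box, whose other strand reads ATTGG. The lines end at the base before the start site.
ANLN, chr7:36389612-36389861, plus strand: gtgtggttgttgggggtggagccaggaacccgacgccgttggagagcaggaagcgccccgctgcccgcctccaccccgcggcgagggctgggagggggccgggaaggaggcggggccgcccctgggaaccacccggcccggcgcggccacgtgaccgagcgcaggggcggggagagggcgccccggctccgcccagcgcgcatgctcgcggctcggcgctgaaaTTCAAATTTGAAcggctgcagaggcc
PLK1, chr16:23678639-23678888, plus strand: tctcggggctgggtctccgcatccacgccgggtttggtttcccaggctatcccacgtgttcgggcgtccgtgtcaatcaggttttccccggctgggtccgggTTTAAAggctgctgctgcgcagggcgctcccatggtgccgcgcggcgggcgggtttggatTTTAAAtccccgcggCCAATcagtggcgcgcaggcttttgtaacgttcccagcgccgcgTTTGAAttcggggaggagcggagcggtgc
KIF23, chr15:69414099-69414348, plus strand: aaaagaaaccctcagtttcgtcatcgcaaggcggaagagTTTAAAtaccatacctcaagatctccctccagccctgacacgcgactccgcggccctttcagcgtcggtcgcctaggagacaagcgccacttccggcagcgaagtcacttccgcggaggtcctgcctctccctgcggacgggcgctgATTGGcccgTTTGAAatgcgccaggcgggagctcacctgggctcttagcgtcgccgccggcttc
BUB1, chr2:110678064-110678313, minus strand: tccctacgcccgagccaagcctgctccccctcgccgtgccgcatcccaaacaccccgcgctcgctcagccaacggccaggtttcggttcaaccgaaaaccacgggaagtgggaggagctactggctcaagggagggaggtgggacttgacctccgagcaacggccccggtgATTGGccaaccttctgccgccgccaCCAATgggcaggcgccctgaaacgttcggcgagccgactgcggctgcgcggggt
ANLN has TTTGAA 20 to 15 bases before the start, directly after TTCAAA, and no CCAAT in these bases. PLK1 has TTTGAA 29 to 24 bases and CCAAT 73 to 69 bases before the start, and KIF23 has TTTGAA at 55 to 50 and ATTGG at 64 to 60. BUB1 has CCAAT at 54 to 50 and ATTGG at 79 to 75, and neither TTTGAA nor the variant TTTAAA in its window. PLK1 and KIF23, with fold changes of opposite sign and neither past the adjusted threshold, share both sets of letters. Whether the letters go with direction was not tested.

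Among the 12 genes of mitotic entry, 3 were higher at an unadjusted p under 0.05 and 0 lower, and none passed limma's adjusted threshold. Over all tested genes 8.51% were higher and 5.89% lower by that rule, and 13.8% and 10.1% of those above the median level. These shares also stand beside the counts of the other classes below. PLK1 encodes Polo-like kinase 1, which acts from mitotic entry to cytokinesis. It was at 7.97, 7.94 and 7.67 in the KHSRP siRNA arrays, against 7.25, 7.20 and 6.97 in the scramble siRNA arrays. The groups did not overlap, with a log2 fold change of 0.72 (SE 0.12, 95% confidence interval 0.44 to 1.00, adjusted p = 0.0527 in limma). CDK1, the catalytic subunit of the mitotic kinase, was at 6.0, 6.35 and 6.16 in the KHSRP siRNA arrays, against 5.78, 5.74 and 5.51 in the scramble siRNA arrays. Every KHSRP siRNA array was above every scramble siRNA array, with a log2 fold change of 0.49 (SE 0.12, adjusted p = 0.116). NEK2, a centrosome kinase, was the third, at 0.24 (SE 0.09, adjusted p = 0.299).

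The cyclin partners of CDK1 differed less. CCNB1, the brightest gene of the class, encodes cyclin B1 and was at 11.97, 11.70 and 11.75 in the KHSRP siRNA arrays, against 11.72, 11.50 and 11.60 in the scramble siRNA arrays. These values overlapped, with a log2 fold change of 0.20 (SE 0.11, adjusted p = 0.456), or 0.12 without KHSRP siRNA replicate 1. CCNB2 was at 0.10 (SE 0.18), or -0.06 without KHSRP siRNA replicate 1, and CCNA2, which encodes cyclin A2, at -0.12 (SE 0.13). The dim CCNF, which encodes the substrate receptor cyclin F, was at -0.02 (SE 0.14). AURKA, the spindle pole kinase, was at 9.17, 9.19 and 9.18 in the KHSRP siRNA arrays, against 9.27, 9.00 and 9.17 in the scramble siRNA arrays, and its log2 fold change of 0.03 had a 95% confidence interval of -0.18 to 0.25. The phosphatase genes CDC25B and CDC25C were at -0.16 (SE 0.09) and 0.06 (SE 0.09). PLK4, which starts centriole duplication, was at 0.11 (SE 0.13), and FOXM1, a transcription factor of G2/M genes, at -0.15 (SE 0.13). Without scramble siRNA replicate 1 PLK4 was at 0.02 and FOXM1 at -0.04, and CCNA2 was at -0.01 without KHSRP siRNA replicate 2. CCNF changed sign, to 0.11 without scramble siRNA replicate 3, and AURKA, to -0.04 without scramble siRNA replicate 2. The class median was 0.08, and -0.01 without scramble siRNA replicate 2.

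Of the 18 kinetochore and checkpoint genes, 3 were higher and 1 lower at an unadjusted p under 0.05, and none passed limma's adjusted threshold. The 3 higher all encode centromere or kinetochore proteins named CENP. CENPE, a kinesin that carries chromosomes to the spindle equator, was at 8.33, 8.40 and 8.16 in the KHSRP siRNA arrays, against 7.77, 7.63 and 7.80 in the scramble siRNA arrays. The groups were apart, with a log2 fold change of 0.56 (SE 0.10, 95% confidence interval 0.34 to 0.79, adjusted p = 0.0546). CENPF, a large kinetochore protein and the brightest of the class, was at 10.89, 11.13 and 10.92 in the KHSRP siRNA arrays, against 10.65, 10.77 and 10.68 in the scramble siRNA arrays. Its groups also did not overlap, by a smaller margin, with a log2 fold change of 0.28 (SE 0.09, adjusted p = 0.237). CENPA had a log2 fold change of 0.37 (SE 0.14, adjusted p = 0.291), or 0.22 without KHSRP siRNA replicate 2.

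The checkpoint kinase gene BUB1 lay on the other side. It was at 8.36, 8.35 and 8.51 in the KHSRP siRNA arrays, against 8.56, 8.75 and 8.68 in the scramble siRNA arrays. The nearest arrays of the groups differed little, and the log2 fold change was -0.26 (SE 0.09, adjusted p = 0.252). The other checkpoint genes were BUB3 at 0.00 (SE 0.09), TTK, which encodes the kinase MPS1, at -0.12 (SE 0.12) and MAD2L1, which encodes MAD2 of the mitotic checkpoint complex, at 0.36 (SE 0.20). MAD2L1 was at 9.17 in KHSRP siRNA replicate 1 and at 8.36 and 8.51 in the others of that group, against 8.26, 8.38 and 8.32 in the scramble siRNA arrays. Without that replicate its log2 fold change was 0.11.

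The chromosomal passenger complex corrects wrong attachments and later marks the cleavage site. Its 4 genes lay near 0, with AURKB, the kinase, at -0.03 (SE 0.11), the scaffold gene INCENP at -0.07 (SE 0.08), BIRC5, which encodes survivin, at -0.04 (SE 0.08) and CDCA8, which encodes borealin, at 0.10 (SE 0.14). The 95% confidence interval for AURKB was -0.28 to 0.22. AURKB and BIRC5 changed sign, to 0.05 without KHSRP siRNA replicate 3 and to 0.02 without scramble siRNA replicate 3, and CDCA8 was at 0.02 without the same scramble siRNA array. The NDC80 complex is the main microtubule attachment of the kinetochore, and its subunit genes NDC80, SPC25 and NUF2 were at 0.20 (SE 0.10), 0.22 (SE 0.20) and 0.06 (SE 0.10). SPC25 was at 0.001 and NUF2 at -0.03 without KHSRP siRNA replicate 1. The fourth subunit gene, SPC24, is not among the 60 and had group means under background, 3.89 ± 0.23 in KHSRP siRNA arrays and 4.35 ± 0.29 in scramble siRNA arrays (SD, n = 3 each), with a log2 fold change of -0.46 (SE 0.18, adjusted p = 0.292 in limma). KNL1, the scaffold that recruits BUB proteins, was at 0.17 (SE 0.10), and ZWINT, a partner of ZW10, at -0.13 (SE 0.15), or 0.01 without scramble siRNA replicate 2. The shugoshin genes SGO1 and SGO2 protect cohesin at centromeres and were at 0.22 (SE 0.10) and -0.07 (SE 0.07). SGO1 was at 0.13 without scramble siRNA replicate 3. The class median was 0.08, and -0.01 without KHSRP siRNA replicate 1.

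The 14 spindle and motor genes lay on both sides of 0, with 3 higher and 3 lower at an unadjusted p under 0.05 and none past limma's adjusted threshold. ASPM, which encodes a spindle pole protein, was at 9.47, 9.38 and 9.46 in the KHSRP siRNA arrays, against 9.04, 9.01 and 8.89 in the scramble siRNA arrays. The arrays of each group lay close together and the groups were well apart, with a log2 fold change of 0.46 (SE 0.08, 95% confidence interval 0.27 to 0.65, adjusted p = 0.0597). KIF20B, a kinesin gene with a part in late cytokinesis, was at 8.44, 8.38 and 8.44 in the KHSRP siRNA arrays, against 7.80, 8.05 and 7.88 in the scramble siRNA arrays. Here the KHSRP siRNA arrays were close to each other and all above the scramble siRNA arrays, with a log2 fold change of 0.51 (SE 0.09, adjusted p = 0.0597). DLGAP5, which encodes the kinetochore fibre protein HURP, was the third, at 0.22 (SE 0.08).

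KIF23, TPX2 and KIF15 were the 3 lower. KIF23 encodes MKLP1, the motor of centralspindlin, and was at 10.77, 10.64 and 10.53 in the KHSRP siRNA arrays, against 11.12, 11.07 and 10.81 in the scramble siRNA arrays. The groups were just apart, with a log2 fold change of -0.36 (SE 0.11, adjusted p = 0.212). TPX2, which activates Aurora A on the spindle and is the brightest of the class, was at 12.95, 13.03 and 12.80 in the KHSRP siRNA arrays, against 13.01, 13.30 and 13.32 in the scramble siRNA arrays. Its groups overlapped, with a log2 fold change of -0.29 (SE 0.11, adjusted p = 0.311). KIF15, a kinesin gene that acts beside KIF11 in keeping the spindle bipolar, was at 8.63, 8.02 and 7.88 in the KHSRP siRNA arrays, against 8.71, 8.68 and 8.50 in the scramble siRNA arrays. KHSRP siRNA replicate 1 lay among the scramble siRNA arrays and the others of its group below them. The log2 fold change was -0.46 (SE 0.19, adjusted p = 0.339), and -0.68 (adjusted p = 0.0466) without that replicate.

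Of the other motors, KIF11, the kinesin Eg5 of spindle bipolarity, was at 0.20 (SE 0.10) and the chromokinesin KIF4A at 0.10 (SE 0.12). KIF20A, which carries the passenger complex to the midzone, was at -0.32 (SE 0.14, adjusted p = 0.374). The log2 fold changes of KIF14, KIF18A and KIF2C were -0.03 (SE 0.08), -0.05 (SE 0.13) and -0.06 (SE 0.11), and each changed sign when some array was left out. The spindle proteins HMMR and NUSAP1 were at 0.27 (SE 0.13) and 0.34 (SE 0.18), or 0.14 without KHSRP siRNA replicate 1 and 0.16 without scramble siRNA replicate 2. KIF20A and KIF20B, related kinesins with roles late in division, thus had fold changes of opposite sign. The class median was 0.03, and -0.01 after a further quantile normalization.

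ANLN, in the cytokinesis class, encodes anillin, a scaffold that links actin, myosin and septins in the contractile ring. It was at 11.18, 11.78 and 11.69 in the KHSRP siRNA arrays, against 10.25, 10.55 and 10.36 in the scramble siRNA arrays. Every KHSRP siRNA array was well above every scramble siRNA array, with means of 11.55 ± 0.32 and 10.39 ± 0.16 (SD, n = 3 each). The rise was 2.24-fold (log2 fold change 1.16, SE 0.17, 95% confidence interval 0.77 to 1.56, limma adjusted p = 0.0473). The smallest adjusted p of any tested gene was 0.0438, so the call lay within a narrow band under the threshold. It was kept without KHSRP siRNA replicate 1 (adjusted p = 0.0158) and lost without any one of the other 5 arrays (0.0773 to 0.169). It was also lost with the replicate number as a block (0.0884), a further quantile normalization (0.0513), median centring (0.0704) and an intensity trend with robust prior (0.0603). The log2 fold change itself ran from 1.05 to 1.35 over the 13 alternatives, some of which cannot change it.

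The other 4 measured genes of cytokinesis did not pass. PRC1, which bundles microtubules in the central spindle, was at 10.37, 10.28 and 10.27 in the KHSRP siRNA arrays, against 9.77, 10.07 and 10.02 in the scramble siRNA arrays. These groups did not overlap, with a log2 fold change of 0.35 (SE 0.10, adjusted p = 0.172). ECT2, the exchange factor that activates RhoA at the cleavage site, was at 0.33 (SE 0.16), or 0.49 without KHSRP siRNA replicate 1. RACGAP1, the GTPase-activating subunit of centralspindlin, was at -0.31 (SE 0.20), or -0.53 without scramble siRNA replicate 1. Both centralspindlin genes, KIF23 and RACGAP1, had negative fold changes while ANLN, PRC1 and ECT2 had positive ones. The 95% confidence intervals of RACGAP1 (-0.77 to 0.15) and ECT2 (-0.04 to 0.70) included 0, so their signs are not settled. CEP55, which recruits the abscission machinery to the midbody, was at 0.06 (SE 0.11).

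**Figure D3:**
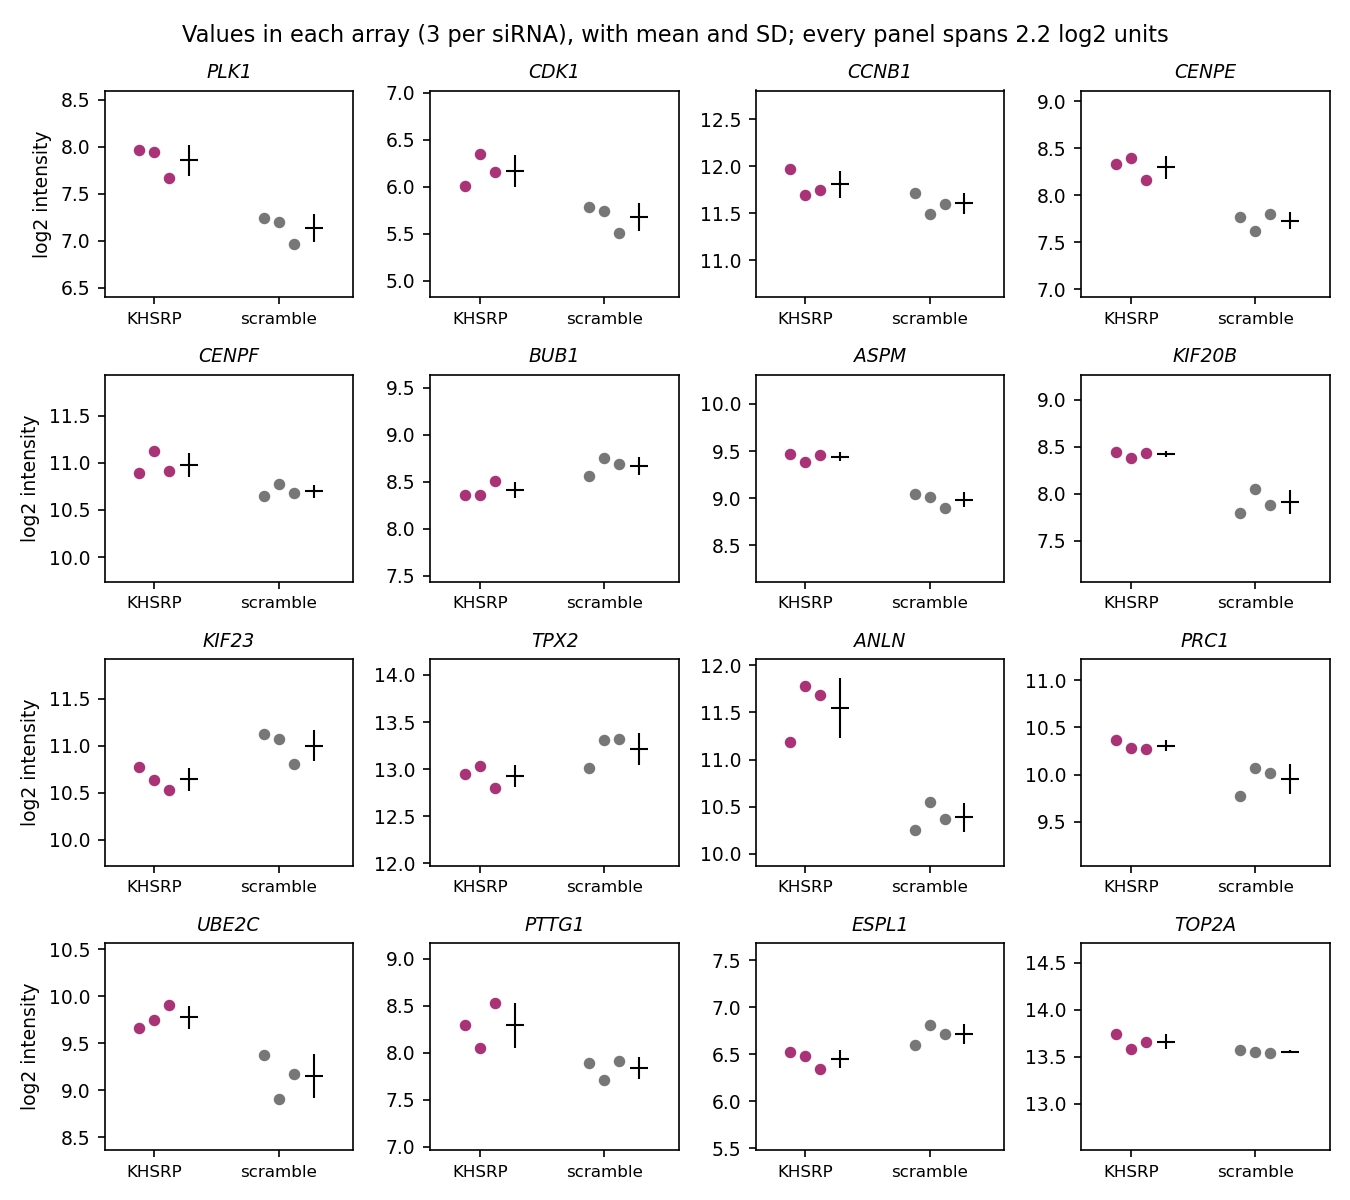
Log2 intensity (y axis) in each array for 16 members, KHSRP siRNA left and scramble siRNA right, 3 arrays each, with a dash for the mean and a bar for 1 SD. All panels span the same number of log2 units, so that the step of ANLN can be set against the smaller ones of PLK1 and UBE2C and the flat TOP2A.

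Among the 9 genes of mitotic exit and chromosome structure, 2 were higher and 1 lower at an unadjusted p under 0.05, and none passed limma's adjusted threshold. UBE2C, the enzyme that starts ubiquitin chains for the anaphase-promoting complex, was at 9.66, 9.75 and 9.91 in the KHSRP siRNA arrays, against 9.37, 8.91 and 9.17 in the scramble siRNA arrays. The groups were apart, with a log2 fold change of 0.62 (SE 0.13, 95% confidence interval 0.31 to 0.93, adjusted p = 0.0888). PTTG1, which encodes securin, was at 8.29, 8.05 and 8.53 in the KHSRP siRNA arrays, against 7.89, 7.71 and 7.91 in the scramble siRNA arrays. Its lowest KHSRP siRNA array was above the highest scramble siRNA array, with a log2 fold change of 0.46 (SE 0.13, adjusted p = 0.179). ESPL1 encodes separase, the protease that securin inhibits, and was at 6.52, 6.49 and 6.34 in the KHSRP siRNA arrays, against 6.60, 6.82 and 6.72 in the scramble siRNA arrays. All KHSRP siRNA arrays were below all scramble siRNA arrays, with a log2 fold change of -0.26 (SE 0.09, adjusted p = 0.255), opposite in sign to that of PTTG1.

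TOP2A, the DNA topoisomerase that untangles chromosomes, was at 13.74, 13.58 and 13.66 in the KHSRP siRNA arrays, against 13.57, 13.55 and 13.54 in the scramble siRNA arrays. The groups were just apart, and the log2 fold change was 0.10 (SE 0.08, 95% confidence interval -0.08 to 0.29), or 0.04 after a further quantile normalization. MKI67, which encodes the proliferation marker Ki-67, was at 0.09 (SE 0.10, 95% confidence interval -0.14 to 0.32), and 0.01 without KHSRP siRNA replicate 2. CDC20, the activator of the anaphase-promoting complex, was at 0.14 (SE 0.07). The condensin I genes NCAPG and NCAPH were at -0.01 (SE 0.14) and -0.11 (SE 0.15), and both changed sign when a KHSRP siRNA array was left out. UBE2S, which extends ubiquitin chains, had 2 rows. The brighter row, at 5.61 ± 0.27 in KHSRP siRNA arrays and 5.24 ± 0.21 in scramble siRNA arrays (SD, n = 3 each), has an identifier that names chromosome 17, while the gene table puts UBE2S on chromosome 19. Its log2 fold change was 0.37 (SE 0.16), and the difference was 0.14 on the row whose identifier names chromosome 19, so the value for UBE2S is uncertain.

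Of the 58 members, 35 had a 95% confidence interval of the log2 fold change that lay wholly between -0.5 and 0.5. The sign held under all 13 alternatives for 45 members, 32 with positive and 13 with negative fold changes. Some of these alternatives, given below, cannot change a log2 fold change. The SD over 3 arrays had a median over members of 0.14 in the KHSRP siRNA arrays and 0.12 in the scramble siRNA arrays, against 0.12 and 0.12 over all tested genes.

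A further 7 lists held 161 other genes of the same processes, of which 146 were measured. None passed limma's adjusted threshold, and at an unadjusted p under 0.05 there were 15 higher and 19 lower. Together these were 23.3% of the genes, against 14.4% of all tested genes and 24.0% of those above the median level. SPC24, CENPO and CENPW, in 1 of these lists, were added after their values were seen. By direction, 8.51% of all tested genes were higher and 5.89% lower, and 13.8% and 10.1% of those above the median level. The counts of each list below stand beside these shares. Their median log2 fold change was -0.03, against 0.10 for the members. It was -0.07 after a further quantile normalization and -0.01 without scramble siRNA replicate 2. In the anaphase-promoting complex list, CDC23, a scaffold subunit, was at -0.52 (SE 0.10, adjusted p = 0.0665) and the small subunit gene ANAPC16 at 0.31 (SE 0.10), with a median of -0.03 over 15 genes. Of 18 cohesin and other condensin genes 15 had negative log2 fold changes, against 10096 of all 22412 tested genes, with a median of -0.09. At an unadjusted p under 0.05, 1 was higher and 4 lower. NCAPD2, a condensin I subunit, was at -0.48 (SE 0.11, adjusted p = 0.0950) and STAG1, a cohesin subunit, at -0.40 (SE 0.09, adjusted p = 0.108).

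Among 26 other centromere and kinetochore genes, 1 was higher and 4 lower at an unadjusted p under 0.05. The 1 higher, CENPW, and 1 of the 4 lower, SPC24, were added after their values were seen. The counts of this list are therefore a description only. CKAP5, which encodes the microtubule polymerase ch-TOG, was at -0.68 (SE 0.12, adjusted p = 0.0546), with means of 12.18 ± 0.03 in KHSRP siRNA arrays and 12.86 ± 0.21 in scramble siRNA arrays (SD, n = 3 each). HJURP, the chaperone that loads CENPA, was at -0.26 (SE 0.08), against 0.37 for CENPA itself. Of 23 other checkpoint and entry regulators 3 were higher and 3 lower. PBK, a mitotic kinase gene, was at 0.80 (SE 0.13, adjusted p = 0.0530), with means of 6.86 ± 0.18 in KHSRP siRNA arrays and 6.06 ± 0.19 in scramble siRNA arrays (SD, n = 3 each). TRIP13, which takes MAD2 out of the checkpoint complex, was at -0.65 (SE 0.14, adjusted p = 0.0936).

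At the same unadjusted p under 0.05, 5 of 22 spindle assembly and centrosome genes were higher and 4 lower, against 8.51% and 5.89% of all tested genes. The spindle protein gene CKAP2 was at 0.65 (SE 0.12, adjusted p = 0.0675) and CEP192, a centrosome scaffold, at -0.36 (SE 0.10, adjusted p = 0.150). Of 19 abscission and cortex genes 3 were higher and 2 lower. DIAPH3, which encodes a formin that nucleates actin, was at -0.39 (SE 0.10, adjusted p = 0.119), and CHMP4B, an ESCRT-III subunit gene, at 0.43 (SE 0.13, adjusted p = 0.195). The 23 DREAM, MuvB and E2F regulators had log2 fold changes from -0.25 to 0.32, with 1 higher and 1 lower: CDKN1B, which encodes the CDK inhibitor p27, at 0.32 (SE 0.12), and E2F5 at -0.25 (SE 0.11).

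**Figure D4:**
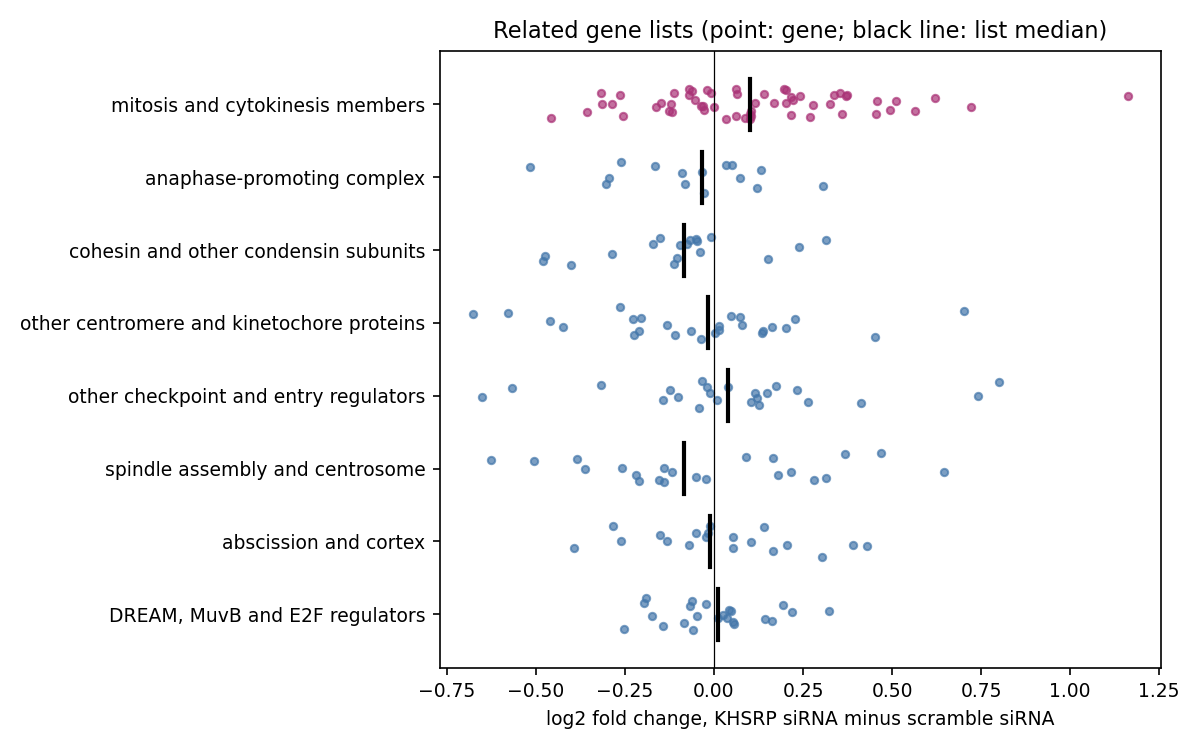
Log2 fold change (x axis, KHSRP siRNA minus scramble siRNA) of each measured gene in the 58 members and in 7 related lists, 1 point per gene, with a black line at the list median. The members' median of 0.10 lies to the right of those of the 7 lists, which run from -0.09 to 0.04.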

How the data were processed

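The authors deposited log2 intensities, 70523 rows by 6 arrays, made with Affymetrix Expression Console, RMA and Transcriptome Analysis Console on build hg19, per the submitters' processing notes. RMA subtracts a modelled background and makes array distributions alike, which tends to shrink differences of dim probes. Array maxima of 19.72 to 19.93 leave a further transform of scale possible, so fold changes hold on the deposited scale. Array medians ran from 4.30 to 4.38. Rows with 1 annotated symbol (23781, for 22411 genes) were named through the platform annotation and a RefSeq gene table (GRCh38.p14), with the brightest row per gene, and KHSRP was added from its shared row. No filter on low values was used.

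The fit used limma 3.58.1 (R 4.3.3; lmFit and eBayes, two-sided) on KHSRP siRNA minus scramble siRNA, with Benjamini-Hochberg adjustment over all 22412 genes. It was tested on simulated data. All log2 fold changes, SE, intervals and adjusted p-values come from that fit. The number of arrays limits the precision, and p-values measure only the spread between these arrays. No scan date or batch was given in the sources used here. Members and lists were chosen with earlier results of these data known, so they are described and not tested as sets. Array values are given, in each class, for called members, the 2 smallest p in each direction at an unadjusted p under 0.05 and the brightest member. Array values of AURKA, MAD2L1 and KIF15 were added after their values were seen. In other lists at most the 2 smallest p are named. SPC24, CENPO, CENPW and further epithelial markers were added after their values were seen. Alternatives (13) were a replicate block, a further quantile normalization, median centring, genes above the median level only, the mean of a gene's rows, an intensity trend with robust prior, array weights and each array left out.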

Additional observations from a re-analysis of the deposited data

How the results depend on the processing

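The count of 1 called member was 0 with the replicate number as a block (replicate block), after quantile normalization again, after centring on array medians and with an intensity trend and robust prior, where ANLN had adjusted p-values of 0.0884, 0.0513, 0.0704 and 0.0603. These 4 settings called 1, 32, 0 and 0 of all genes by limma, with 3385, 3375, 3111 and 3097 at an unadjusted p under 0.05. It was 5 among genes above the median level only (ANLN, ASPM, CENPE, KIF20B and PLK1), 6 with array weights (those 5 and UBE2C) and 0 to 2 when an array was left out. The 2 were ANLN and KIF15, without KHSRP siRNA replicate 1. Over all tested genes these 3 settings called 433 (of 11206), 704 and 329, against 170 in the fit reported above, and leaving out any other array called 0 or 1 by limma, with 2372 to 3286 at an unadjusted p under 0.05. The 13 members higher at an unadjusted p under 0.05 stayed within 1.5 times that count in all 13 alternatives. They were 12 with the replicate block, 10 after centring on array medians, 9 without scramble siRNA replicate 3 and 16 with array weights. Of all genes tested in each alternative, 6.54% to 13.0% were higher by the same rule. The 5 lower became 3 under the trend with a robust prior, 8 under array weights and 0 to 5 when an array was left out, 0 of them without scramble siRNA replicate 2. Over all tested genes the lower share in these settings was 5.53%, 7.83% and 4.05% to 6.59%, against 5.89% in the fit reported above. The 3 members lower without overlap became 7 after quantile normalization again and 3 to 8 when an array was left out. Overlap was not counted over all tested genes in those settings, and groups of fewer arrays separate more easily. The median of 0.10 was 0.051 after quantile normalization again and ran from 0.051 to 0.13 when an array was left out. Over all tested genes the median was -0.005 after quantile normalization again and 0.004 to 0.034 when an array was left out. None of the 16 members named by the rule changed sign in any of the 13 alternatives. The replicate block, the genes above the median level and the intensity trend cannot change a log2 fold change. The mean of a gene's rows can do so only for UBE2S. Most of the 16 were also named for a small p in these same data, which favours a stable sign. Of the 3 members whose array values were added later, AURKA changed sign, to -0.04 without scramble siRNA replicate 2. Same-numbered arrays had deviations correlated at 0.16, 0.06 and -0.08, so the numbers were not taken as pairs. Medians of 3 classes changed sign as given above.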

Other observations

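Within the KHSRP siRNA group, replicate 1 was the array farthest from the group's median for 25 of the 58 members (43.1%, against 34.4% of all tested genes). It lay above the other arrays of its group in 18 of these 25. That direction was not counted over all tested genes, so it is not read as a trait of the members. In the scramble siRNA group the array farthest from the median was replicate 1 for 24 members, replicate 2 for 18 and replicate 3 for 16, close to the shares over all tested genes (41.4%, 29.7% and 28.9%). The median deviation of the members from their own mean over all 6 arrays was 0.11 in KHSRP siRNA replicate 1, 0.03 in replicate 2 and 0.01 in replicate 3, against -0.04, -0.06 and -0.05 in the scramble siRNA arrays. Over all tested genes it was 0.03, -0.02 and 0.02 in the KHSRP siRNA arrays and 0.004, -0.02 and -0.02 in the scramble siRNA arrays.

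The 10 epithelial markers had a median log2 fold change of 0.17, with 8 above 0, against 55.0% of all tested genes. None passed limma's adjusted threshold. At an unadjusted p under 0.05, 5 were higher and 0 lower, against 8.51% and 5.89% of all tested genes. Among genes above the median level these shares were 13.8% and 10.1%. Some of these markers were added after their values were seen, so the counts describe the list and were not tested. Of the 5, LGALS4 had a mean under background, and VIL1 had a mean of 4.60 in the scramble siRNA arrays, also under background. The smallest p-values were those of the simple keratins KRT18, at 0.49 (SE 0.09, limma adjusted p = 0.0681), and KRT8, at 0.58 (SE 0.11, adjusted p = 0.0717). KRT19 was at 0.55 (SE 0.14), VIL1 at 0.28 (SE 0.12), LGALS4 at 0.19 (SE 0.08) and CLDN7 at 0.15 (SE 0.10). The adhesion genes EPCAM, CDH1 and CDH17 were at 0.08 (SE 0.09), 0.03 (SE 0.09) and -0.02 (SE 0.07), and the transcription factor gene CDX2 was at -0.09 (SE 0.12).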
